A study of Mus musculus with 2 samples.

Results

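Metallothioneins and zinc transporters were read on 22 of 45101 probe sets, which covered 10 genes: Mt1, Mt2, Mtf1, 3 exporter genes of the Slc30 family (Slc30a1, Slc30a5 and Slc30a7) and 4 importer genes of the Slc39 family (Slc39a1, Slc39a8, Slc39a10 and Slc39a14). A probe set is a group of short probes whose combined brightness gives 1 signal, and each probe set whose platform annotation named a single gene of the family was taken. The family was chosen by values of these same arrays, since Mt2 was already known to be among the genes most raised in knockout, so its values are given as a description with no test. Macrophages had been sorted from the livers of C57BL/6J mouse fetuses at E15.5, counted in days of embryonic development, by antibodies to Mac-1 (CD11b) and to the macrophage surface protein encoded by Adgre1. One array held RNA of wild type (c-Maf+/+) fetuses and the other RNA of c-Maf KO (c-Maf-/-) fetuses, which lack the transcription factor encoded by Maf; the labels name no other allele and give the treatment as none. The labels do not say how many fetuses were pooled. Each genotype had a single array and hence no replicate, so no difference has a replicate error and the number of arrays limits the precision of every value.

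Metallothioneins are small cysteine-rich proteins of the cytosol that bind zinc, copper and cadmium, and they hold and buffer zinc inside cells. The zinc finger factor encoded by Mtf1 senses free zinc and binds metal response elements in the promoters of the metallothionein genes and of Slc30a1. Slc30 proteins move zinc out of the cytosol, across the plasma membrane or into vesicles, and Slc39 proteins move it into the cytosol. In fetal life hepatocytes are a major site of metallothionein production.

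The promoters of Mt2, Mt1 and Slc30a1 are shown because Mt2 and Mt1 were the genes of the family with the highest knockout to wild type ratios, and Slc30a1 is the exporter gene whose promoter the same factor is known to bind. Windows of 300 bases, 250 before the start of the transcript and 50 from it on, were taken from RefSeq on the GRCm38.p6 build for 9 of the 10 genes, all but Slc39a14. Each window was searched on both strands for the core of the metal response element, TGCACNC or TGCGCNC, where N is any base. Capitals mark the matches, and a match on the opposite strand appears as its reverse complement. The Mt2 window is at chr8:94172368-94172667 on the plus strand, the Mt1 window at chr8:94178839-94179138 on the plus strand and the Slc30a1 window at chr1:191906531-191906830 on the plus strand.
Mt2: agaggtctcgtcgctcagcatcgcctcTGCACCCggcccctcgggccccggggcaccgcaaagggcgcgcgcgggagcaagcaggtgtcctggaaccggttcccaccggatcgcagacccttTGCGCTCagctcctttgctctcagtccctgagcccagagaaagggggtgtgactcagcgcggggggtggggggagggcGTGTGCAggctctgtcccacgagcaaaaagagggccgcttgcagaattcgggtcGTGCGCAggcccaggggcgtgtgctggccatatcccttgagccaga
Mt1: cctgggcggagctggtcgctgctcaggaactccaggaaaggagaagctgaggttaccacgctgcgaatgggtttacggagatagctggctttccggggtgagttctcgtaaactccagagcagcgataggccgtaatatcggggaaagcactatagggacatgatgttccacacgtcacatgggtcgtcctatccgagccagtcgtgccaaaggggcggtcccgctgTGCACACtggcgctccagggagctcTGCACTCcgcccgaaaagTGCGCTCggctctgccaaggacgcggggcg
Slc30a1: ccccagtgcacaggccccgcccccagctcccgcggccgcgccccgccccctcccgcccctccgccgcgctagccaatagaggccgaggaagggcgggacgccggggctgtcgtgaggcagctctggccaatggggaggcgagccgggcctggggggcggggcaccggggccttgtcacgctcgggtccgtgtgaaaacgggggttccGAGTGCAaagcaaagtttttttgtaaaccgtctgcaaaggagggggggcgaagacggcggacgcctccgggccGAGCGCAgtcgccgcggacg
Mt2 held 4 matches, which began at bases 28, 123, 201 and 255 of the window, the last 2 on the opposite strand. Mt1 held 3, at bases 228, 253 and 271, all on the strand of the gene. Slc30a1 held 2, at bases 208 and 281, both on the opposite strand. Of all 32851 promoter windows of this length, 25.7% held at least 1 match, 7.11% at least 2, 1.97% at least 3 and 0.517% at least 4. These shares were not matched for base content. G and C made up 67.7% of the Mt2 window, 60.7% of Mt1 and 73% of Slc30a1, against a median of 52.7% over all windows. Slc30a5 and 1 of 2 windows of Slc39a8 held 1 match each, and these letters were absent from the windows of Mtf1, Slc30a7, Slc39a1 and Slc39a10. In the gene table Mt2 and Mt1 lie next to each other on the chromosome, with 0 listed genes between them.

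The deposited values are linear intensities, and the knockout array was dimmer as a whole, with a median of 2.98 over all probe sets against 4.73 in wild type. Therefore each deposited signal is followed by a level-adjusted ratio, which is the log2 ratio of knockout over wild type after quantile normalization, a step that gives both arrays the same distribution of signals. Values under a floor (3.75 level-adjusted, 3.70 in deposited signal, the middle of all values) were raised to it, a probe set above the floor on at least 1 array is called measured, and one above it on a single array gives only a bound. For a sense of scale, level-adjusted ratios of probe sets of the same gene scattered with an SD of 0.64 (3738 pairs in 1813 genes, no value under the floor, the brighter value of each probe set at least 14.8), so that the difference of a pair had an SD of 0.91; all were read on the same arrays, so this is no replicate error. Maf itself was lower in knockout: the brightest of its probe sets was at 47.6 in the wild type and 0.219 in the knockout, at least 8.51-fold lower after level adjustment. It is not known here whether its probes lie in the deleted part. Every marker gene of the macrophage list had signal above the floor on both arrays after level adjustment, but Itgam, encoding Mac-1, had only 5.76 in the wild type and 3.94 in the knockout.

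Of the 22 probe sets, 16 were measured and represented 9 genes. After level adjustment 3 of the 16 were at least 2-fold higher in knockout and 0 at least 2-fold lower, where 8.41% and 9.01% of all 27755 measured probe sets were. In deposited signal 1 of 16 was at least 2-fold higher and 6 at least 2-fold lower, where 1.2% and 35.1% of all 28343 were. Since the family was chosen with Mt2 in view, nothing is read from these counts. The median level-adjusted ratio was 0.12 over the 16 probe sets and 0.013 over all measured ones; in deposited signal both were below 0, at -0.59 and -0.69.

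**Figure D1:**
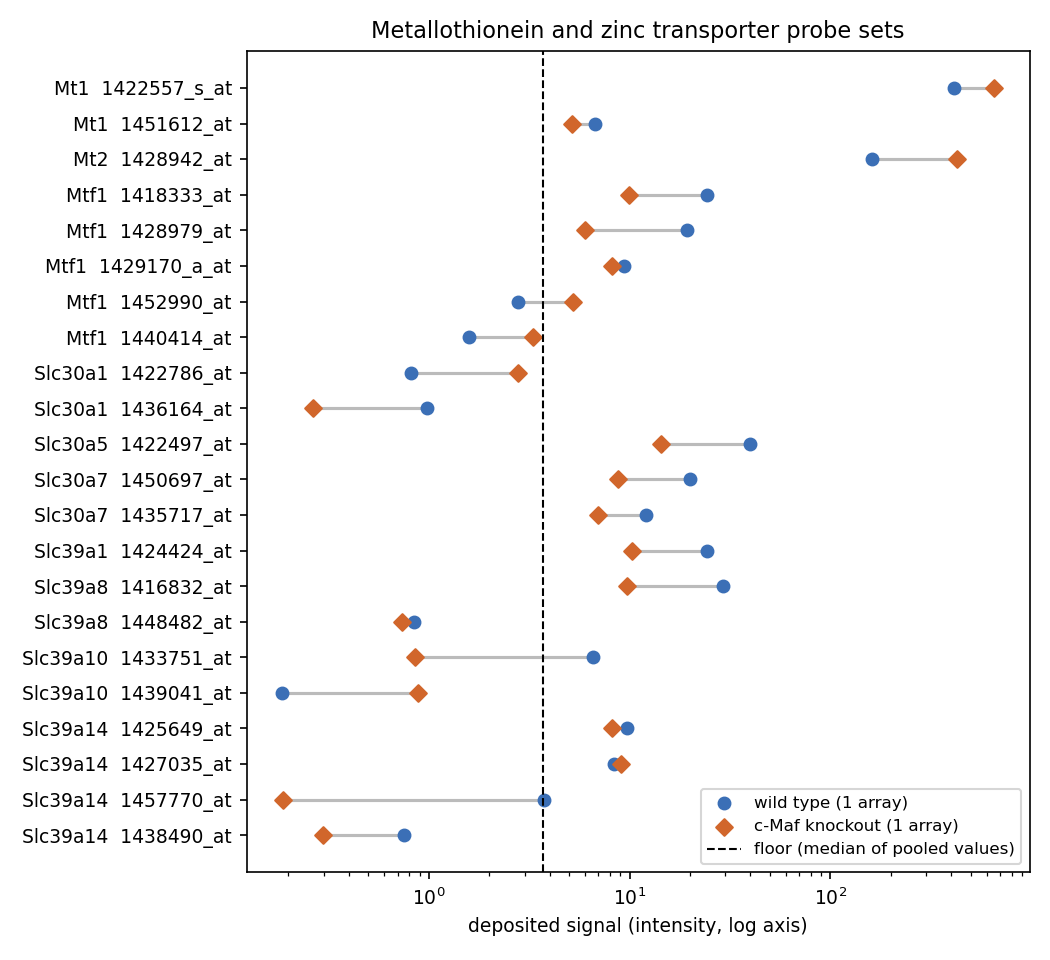
Deposited signal (intensity, log axis) of each of the 22 probe sets on the wild type array (circles) and the c-Maf knockout array (diamonds), with a dashed line at the floor of 3.70. Knockout lies to the right of wild type for Mt2 and for the bright Mt1 probe set, and to the left for the probe sets of Slc30a5, Slc30a7 and Slc39a1.

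Mt2, a metallothionein gene expressed in most tissues, had a signal of 162 in the wild type and 426 in the knockout. That is 2.63-fold higher as deposited, and the level-adjusted log2 ratio was 2.45, or 5.45-fold. Knockout was thus the higher array on both scales. By this ratio Mt2 ranked 23 among 13290 measured genes, each represented by its brightest probe set. Within its signal bin, the brightest of 5 equal bins of probe sets above the floor on both arrays, 99.8% of probe sets had a lower ratio. Mt2 was read by a single probe set, so no second one checks it. The ratio stayed above 2-fold under all 5 scalings examined, from 1.15 with the manufacturer's hybridisation controls as reference to 2.45 with quantile normalization.

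Mt1, its close relative and neighbour, was read by 2 probe sets that differed. The bright one, 1422557_s_at, had a signal of 412 in the wild type and 654 in the knockout, 1.59-fold higher as deposited and 1.63 on the level-adjusted log2 scale. Its suffix marks probes shared by more than 1 transcript, and whether it also reads other metallothionein RNA was not tested. The dim one, 1451612_at, went from 6.74 in wild type to 5.16 in knockout, a level-adjusted ratio of 0.37. It lay close to the floor on both arrays. The ratios of the pair were 1.26 log2 units apart, and their mean was just over 2-fold. The SD of 0.91 for such pairs comes from probe sets brighter than the dim one. As deposited, the bright probe set was higher in knockout by less than 2-fold (log2 ratio 0.67), while the dim one was lower (-0.38).

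Mtf1, encoding the zinc sensor that acts on the metallothionein promoters, had no common direction among its 5 probe sets. The brightest, 1418333_at, had signals of 24.4 in the wild type and 9.95 in the knockout (level-adjusted ratio -0.25). A second, 1428979_at, went from 19.4 to 6.00 (-0.77). Both were lower in knockout on either scale. By contrast 1429170_a_at, at 9.44 and 8.21, had a level-adjusted ratio of 0.69 and was slightly lower as deposited. The remaining pair was dim: 1452990_at went from 2.78 to 5.24, at least 1.84-fold higher after level adjustment, and 1440414_at from 1.59 to 3.29, at least 1.11-fold. After level adjustment none of the 3 measured on both arrays reached 2-fold in either direction, and the ratios of all 5, bounds included, spanned 1.65 log2 units with a mean of 0.14.

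Among the exporters, Slc30a1, which carries zinc out across the plasma membrane, was below the floor on both arrays by both its probe sets. Those signals were 0.811 in the wild type and 2.79 in the knockout for one, and 0.983 and 0.265 for the other, so no ratio is given at this floor. Slc30a5 and Slc30a7 load zinc into the early secretory pathway, where enzymes such as alkaline phosphatase receive it. Slc30a5 had a signal of 39.6 in the wild type and 14.3 in the knockout, a level-adjusted ratio of -0.36. The brighter Slc30a7 probe set went from 19.99 to 8.77 (-0.18) and the dimmer one from 12.1 to 6.94 (0.085). The Slc30a5 and Slc30a7 probe sets were lower in knockout as deposited and within 2-fold after level adjustment, inside the range from the 10th to the 90th percentile of all measured probe sets, -0.95 to 0.93.

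Of the importers, Slc39a1, which takes up zinc at the plasma membrane, had a signal of 24.4 in the wild type and 10.3 in the knockout (level-adjusted ratio -0.20). Slc39a8, a carrier of zinc and manganese that macrophages raise on activation, went from 29.2 to 9.77 (-0.53), and its other probe set was below the floor on both arrays (0.848 and 0.735). After level adjustment Slc39a8 was within 2-fold, and 23.3% of measured genes had a lower ratio; as deposited it was 2.99-fold lower (log2 ratio -1.58). Slc39a10, a plasma membrane importer, was above the floor in wild type only. Its brighter probe set had 6.57 in the wild type and 0.852 in the knockout, at least 1.37-fold lower after level adjustment and at least 1.78-fold lower as deposited; with a floor at the 25th percentile the log2 ratio was -2.18. The other Slc39a10 probe set was below the floor on both arrays, at 0.186 in the wild type and 0.883 in the knockout.

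Slc39a14, a carrier of zinc, manganese and iron that the liver raises in the acute phase response, had 4 probe sets, of which 2 were measured. Its brightest probe set, 1425649_at, had 9.75 in the wild type and 8.20 in the knockout, a level-adjusted ratio of 0.65. Another, 1427035_at, went from 8.38 to 9.05 and lay on the 2-fold line; it was short of 2-fold with equal medians (0.78) and nearly level as deposited (0.11). The other two were dim: 1457770_at went from 3.76 in wild type to 0.187 in knockout and 1438490_at from 0.749 to 0.298, and both were below the level-adjusted floor on both arrays. Taking the brightest probe set of each gene, 2 of 9 measured genes (Mt1 and Mt2, the latter being the gene for which the family was chosen) were at least 2-fold higher and 0 lower, where 8.34% and 9.05% of all 13290 measured genes were. The 6 measured transporter genes had a median of -0.28.

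**Figure D2:**
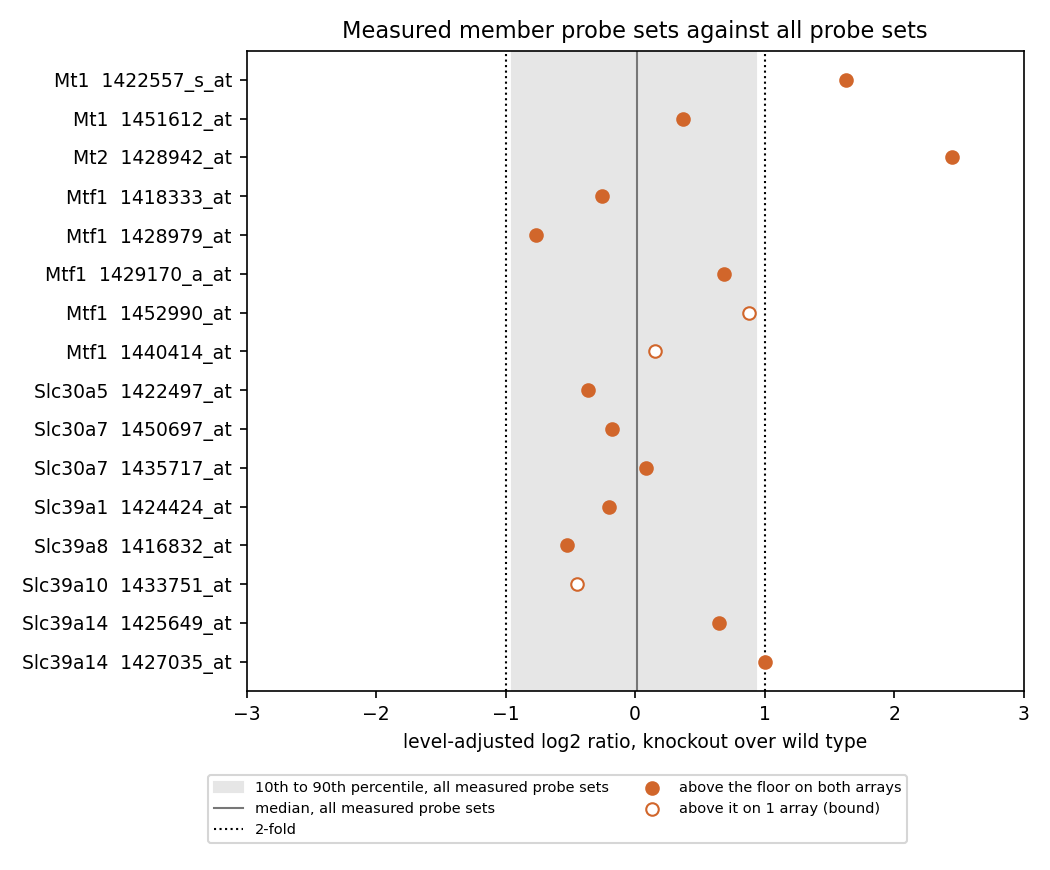
Level-adjusted log2 ratio of knockout over wild type for the 16 measured probe sets, with the 10th to 90th percentile of all measured probe sets as a grey band, their median as a line and 2-fold as dotted lines. Mt2 (2.45) and the bright Mt1 probe set (1.63) lie to the right of the band and of the 2-fold line, and Slc39a14 1427035_at lies on that line; open circles are bounds.

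The scaling set the sign of some ratios and not of others. Under 5 scalings (quantile normalization, equal medians, ratios centred on the median, values as deposited and scaling to the hybridisation controls) Mt2 ran from 1.15 to 2.45 and the bright Mt1 probe set from 0.43 to 1.63, both above 0 throughout. The brightest probe sets of Mtf1, Slc30a5, Slc30a7, Slc39a1 and Slc39a8 were below 0 under each of the 5. That of Slc39a10 was below 0 under 4 of them, down to -0.96 with the hybridisation controls, and at 0.014 with centred ratios. Its knockout signal of 0.852 lay under the deposited floor of 3.70. The value of 0.014 is thus an upper bound set by the floor and shows no turn of sign. For Slc39a14 the sign of the brightest probe set did turn, from 0.65 with quantile normalization to -0.25 as deposited and -0.49 with the hybridisation controls. The median of all measured probe sets moved from 0.013 to -0.69 and -0.87 over the same settings, and Slc39a14 lay above it in each.

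**Figure D3:**
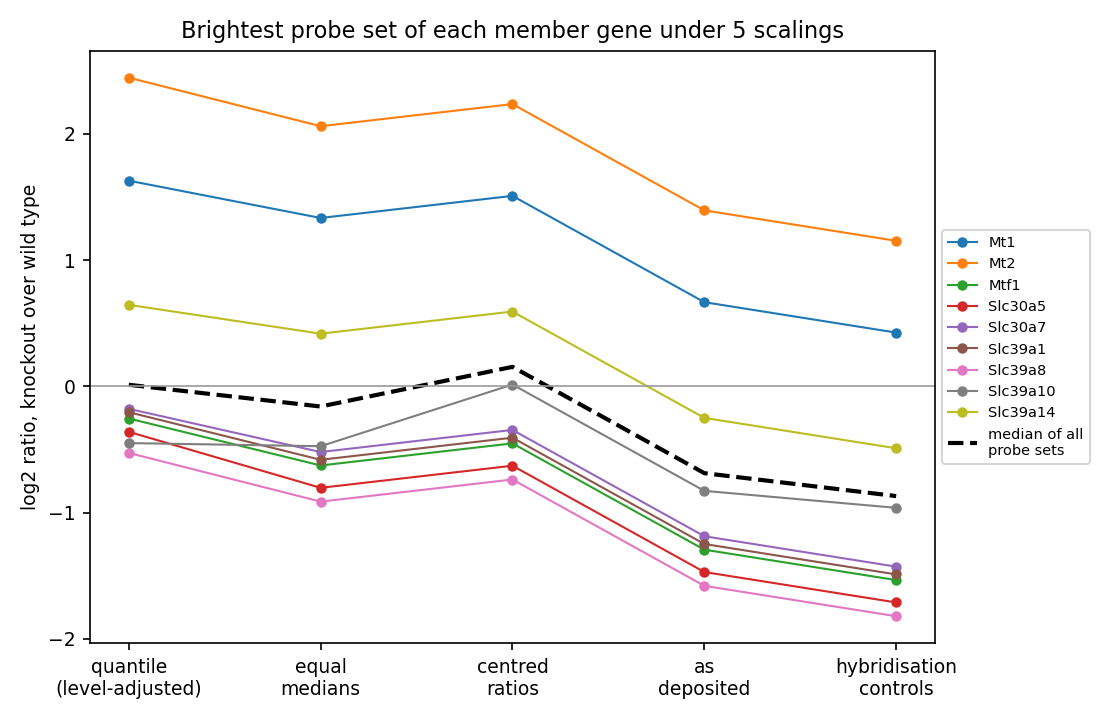
Log2 ratio of knockout over wild type (vertical axis) for the brightest probe set of each of the 9 measured genes under 5 scalings (horizontal axis), with the median of all measured probe sets as a dashed line. Mt2 is the top line and Mt1 the next under each scaling, and Slc39a14 crosses 0 between centred ratios and values as deposited. Slc39a10 touches 0 with centred ratios, where its value is an upper bound because its knockout signal is under the floor.

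The other genes of zinc transport did not move one way. Of 19 further metallothionein and Slc30 or Slc39 genes, 13 were measured, 2 were at least 2-fold higher and 2 at least 2-fold lower, and the list median was 0.19. Counts of this list and of those that follow are read beside the same shares of all measured genes, 8.34% higher and 9.05% lower. Slc39a6, a plasma membrane importer, went from 41.6 in wild type to 6.26 in knockout (level-adjusted ratio -1.74, -2.73 as deposited). Another probe set of Slc39a6, however, went from 11.5 to 6.69 (0.091 level-adjusted). Slc39a9 went from 13.4 to 3.46 (-1.15), and Slc39a13, which releases zinc from vesicles of the secretory pathway, from 9.86 to 11.4 (1.15). The other higher gene was Slc30a10, a manganese exporter, which was under the floor in the wild type and 7.81 in the knockout (at least 2.90-fold); it was named after its value was seen. Mt3 and Mt4, the metallothioneins of brain and of stratified epithelium, were below the level-adjusted floor on both arrays.

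Genes reported as targets of the Mtf1 product, apart from the family itself, had a median level-adjusted ratio of 0.67 over 7 measured of 9, against 0.0087 over all measured genes. In deposited signal the medians were -0.10 and -0.79. The level-adjusted median of 0.67 was the value of Hamp, a bound from signals near the floor (4.47 in wild type and 4.60 in knockout). Another Hamp probe set went the other way, from 6.83 in wild type to 0.281 in knockout (-0.50, also a bound). Of the 7, 2 were at least 2-fold higher and 0 lower. Selenow, a small selenoprotein, went from 773 in wild type to 962 in knockout (1.14) and Csrp1 from 9.78 to 10.8 (1.08), while a second probe set of each was within 2-fold (0.80 and 0.62). Ndrg1 went from 16.1 to 15.0 (0.94), and a dimmer probe set of it from 1.66 to 12.9, at least 4.97-fold higher.

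Transcripts of hepatoblasts, the precursors of hepatocytes, were higher on the same knockout array. Of 13 markers, 12 were found on the array, 10 were measured, and 8 of these were at least 2-fold higher and 0 lower, with a median of 1.63. Alb, encoding albumin, went from 63.8 in wild type to 136 in knockout (level-adjusted ratio 2.27) and Apoa1 from 6.69 to 22.2 (2.67). Afp, encoding alpha-fetoprotein, went from 209 to 268 (1.51), Ttr from 42.0 to 77.8 (2.06), Apoa2 from 19.96 to 31.1 (1.74) and Serpina1b from 8.62 to 23.1 (2.38). The summed signal of the 12 was 378 in the wild type and 590 in the knockout; Apob and Fgb were below the floor on both arrays. Rbp4 (0.68, lower as deposited at 12.7 in wild type and 10.4 in knockout) and Fgg (0.76, a bound) did not reach 2-fold. The ratios of Mt2 (2.45) and Mt1 (1.63) lay within the wide range of the hepatoblast genes, 0.68 to 2.67. Hmox1, of another list, lay in that range too (2.42). The part of liver cells or their RNA in the metallothionein values was not tested. In RNA of a sorted population, more cells of a type and more RNA per cell cannot be told apart.

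Lists of other cell types had medians nearer to 0. The macrophage list had a median of 0.17 with 2 of 8 genes higher (Cd68 at 1.43 and Fcgr1 at 1.21) and 1 lower, Vcam1 (-1.76). The erythroid list had a median of 0.56 over 5 measured genes, with 1 higher and 0 lower. Klf1 was at 1.53, Epor at 0.93, Ank1 at 0.56, Alas2 at -0.26 and Hbb-y, the brightest, at -0.58. The granulocyte list had a median of -0.43 over 6 genes, with 0 higher and 2 lower, Camp (-1.62) and Mpo (-1.19). Ltf was at -0.86, S100a8 at 0, S100a9 at 0.068 and Elane at 0.14. All 6 granulocyte markers were above the floor on both arrays. S100a8 had a deposited signal of 4717 in the wild type and 3317 in the knockout, which were level after adjustment. The part of granulocyte RNA in the values above was not tested. Of 4 measured endothelial genes none reached 2-fold.

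**Figure D4:**
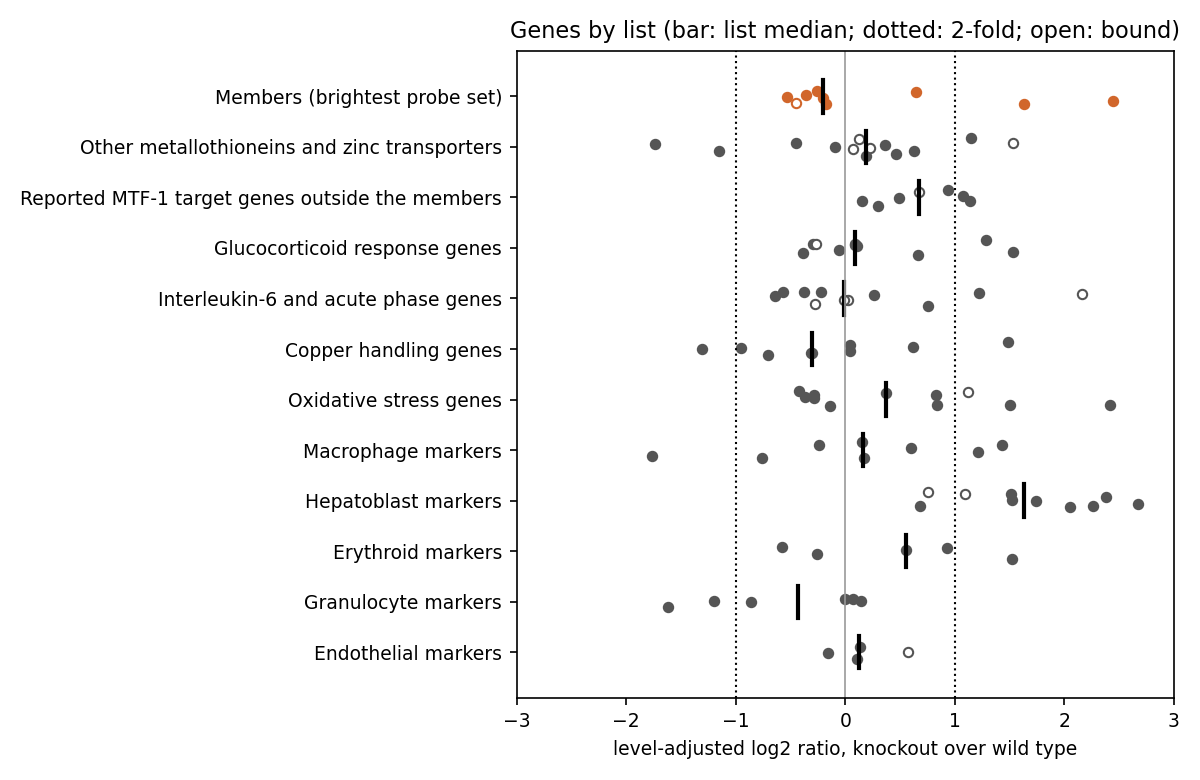
Level-adjusted log2 ratio of knockout over wild type for each measured gene of the family (top row, brightest probe set) and of 11 gene lists; black bars are list medians, dotted lines 2-fold and open circles bounds. Hepatoblast markers have the highest list median (1.63), and Mt2 and Mt1 lie in their range, 0.68 to 2.67.

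Among other genes that were above the floor in both genotypes, the 5 nearest to Mt2 in level-adjusted log2 signal, compared as pairs of values over the 2 arrays, were Afp, Ubxn1, Aldoa, Ifitm3 and Rapgef6. Afp was nearest, at a distance of 0.67 log2 units, and Rapgef6 was at 0.81. Their ratios ran from 1.41 for Rapgef6 to 1.74 for Ifitm3, so none of the 5 reached the ratio of Mt2. With 2 arrays this likeness says only that signals were similar.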

How the data were processed

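The deposited file holds 1 linear intensity per probe set and array. Biotin-labelled total RNA was hybridised by the GeneChip manual's procedure, per the labels' protocols; the summarising and scaling behind them are not stated in any source used here. Symbols came from the platform annotation and were updated through Entrez identifiers (34741 of 34945 probe sets with 1 symbol). Quantile normalization used mean sorted log2 values over all 45101 probe sets, the floor was the 50th percentile of both arrays pooled, and control probe sets (64) were left out of counts. Steps were run in Python 3.11.15 with numpy 2.4.6 and tested on simulated data. No statistical test was possible with 1 array per genotype. Genes named outside the family were Maf, up to 3 per list with the largest absolute ratio among those above the floor on both arrays, marker genes, the 5 nearest to Mt2, and a few named to complete a count. The members, lists and scalings were chosen with earlier results of these data known. Some genes of the lists are not reported here.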

Additional observations from a re-analysis of the deposited data

How the results depend on the processing

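Counts of member probe sets depended on the scaling and the floor. Against 3 at least 2-fold higher and 0 lower of 16 (8.41% and 9.01% of all probe sets), there were 1 and 6 as deposited (1.2% and 35.1%), 1 and 7 with hybridisation controls (0.705% and 43.7%), 6 and 2 of 19 with the 25th percentile floor (20.1% and 20.4%), 7 and 3 of 22 with no floor or filter (22.8% and 23.3%), and 6 and 1 at 1.5-fold (21.0% and 20.8%). Equal medians gave 2 and 1 (4.92% and 14.6%). The median of 0.12 became -0.59 as deposited and -0.79 with hybridisation controls. Without suffixed probe sets Mt1 was at 0.37, short of 2-fold. Signals within a few units of the floor carry little order. No paired analysis was possible because each genotype had 1 array.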

Other observations

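Other regulators of metallothionein genes were looked at through their known response genes. Of 10 measured glucocorticoid response genes, 2 were at least 2-fold higher in knockout after level adjustment and 0 lower, with a median of 0.090; over all measured genes 8.34% were higher, 9.05% lower and the median was 0.0087, which holds for each list here. Ddit4, an inhibitor of mTOR signalling, went from 7.25 in wild type to 11.2 in knockout (1.53) and Klf9 from 8.63 to 11.1 (1.28). Other Klf9 probe sets were below the floor or near it. Sgk1, a kinase gene, was at 0.67. By their brightest probe sets the rest were nearer to 0 or below it. Dusp1 was at 0.088, Cebpd at 0.092, Nr3c1 at 0.11, Tsc22d3 at -0.061, Fkbp5 at -0.30, Zbtb16 at -0.38 and Pdk4 at -0.26 (a bound). Another Zbtb16 probe set was at least 4.24-fold lower. Of 11 measured genes of interleukin 6 signalling and the acute phase, 2 were higher and 0 lower, with a median of -0.013. Socs3 went from 11.0 to 13.2 (1.23), and its other probe sets were at 1.67 and -0.15. Lcn2, encoding lipocalin, was at 0.76 and Il6st, the shared receptor chain, at -0.64. Saa3, named after its value was seen, went from 4.45 to 11.7 (at least 4.48-fold).

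Copper, which metallothioneins also bind, showed no common direction among its handling genes: 1 of 9 was higher, 1 lower, and the median was -0.31. Atox1, the copper chaperone for the secretory pathway, went from 40.3 in wild type to 50.9 in knockout (1.48), and a second probe set was at 1.62. Atp7a, the copper pump it feeds, went from 42.6 to 8.27 (-1.31), with a second probe set at -0.84. Cox17, a copper chaperone of mitochondria, was at -0.95. Of 11 measured oxidative stress genes, 3 were higher and 0 lower, with a median of 0.37. Hmox1, which degrades heme, went from 19.5 to 49.2 (2.42), close to the ratio of Mt2, and Sqstm1 from 25.1 to 33.1 (1.51). By its brightest probe set Slc7a11, the cystine carrier, lay below the level-adjusted floor in the wild type and reached 6.08 in the knockout (at least 2.17-fold). Another Slc7a11 probe set went the other way, from 5.11 in the wild type to 1.14 in the knockout (at least 1.08-fold lower). Slc7a11 was named after its value was seen. Nqo1, a quinone reductase gene, was at 0.84. By their brightest probe sets Gclm was at 0.83 and Gsr at 0.37. Below 0 were Gpx1 (-0.42), Sod2 (-0.36), Txnrd1 (-0.28), Srxn1 (-0.28) and Cat (-0.14). Other probe sets of Sod2 ran from -0.92 to 1.18, and others of Cat and Txnrd1 were at 1.07 and 0.78.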
